A study of Mus musculus with 14 samples.

Results

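Control kidneys of wild-type (WT) mice and of mice lacking ACSS2 (ACSS2-/-) were compared for 2 marks on the same histone residue, crotonylation (H3K9cr) and acetylation (H3K9ac) of lysine 9 of histone H3. The members were 6 of the 14 ChIP-seq samples of the series. They were 2 WT and 2 ACSS2-/- control samples of H3K9cr, and 1 WT and 1 ACSS2-/- control sample of H3K9ac, in each genotype replicate 2. The other 8 samples came from kidneys after unilateral ureteric obstruction (UUO), a surgical model of kidney fibrosis, with 2 samples of each mark in each genotype. According to the methods, ACSS2-/- mice carried the deletion in every cell. The labels give kidney tissue as the source of chromatin, where the methods write of cells. The labels gave neither the age or sex of the mice nor the handling of the control kidneys. Kidney tissue mixes tubular, vascular, stromal and immune cells, so a peak carried by fewer cells and a weaker mark in each cell cannot be told apart.

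Crotonyl and acetyl groups are both added to H3K9 by acyltransferases such as p300, which take them from crotonyl-CoA and acetyl-CoA, and both are removed by histone deacetylases. Bromodomain proteins bind mainly acetyl-lysine, whereas YEATS and double PHD finger domains also bind crotonyl-lysine. ACSS2 makes short-chain acyl-CoA from free acids. Both marks are known from active promoters and enhancers, which makes regions with 1 of them and without the other the point of comparison.

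ChIP-seq reads were available as lists of peaks, with a start and an end for each peak and no height. Peaks of the 6 control samples that overlapped were merged into 63279 regions. A region was called H3K9cr-only with a peak in all 4 H3K9cr samples and in neither H3K9ac sample, H3K9ac-only with a peak in both H3K9ac samples and in no H3K9cr sample, and shared with a peak in all 6. RefSeq genes were classed the same way from peaks within 3 kb of either gene end. The H3K9cr lists held 32945, 36485, 45014 and 37456 peaks (WT replicates 1 and 2, then ACSS2-/- replicates 1 and 2), and the H3K9ac lists held 25585 (WT) and 32760 (ACSS2-/-). They covered 34.2 to 64.6 Mb of genome. WT control H3K9cr replicate 1 stood apart with 0 peaks on chromosome Y, where the other 5 lists had 2 to 5. Read depth is unknown from the lists, and a deeper library lets more and longer peaks pass the same threshold. Values of the 6 samples are given below in the same order, H3K9cr first.

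The promoters of 3 H3K9ac-only genes and 3 H3K9cr-only genes are shown because CpG content separated the classes described below. They were chosen after their values were seen, among genes whose start lay under peaks of that mark alone. Each window runs from 250 bases before to 50 bases after the annotated start, 5′ to 3′, from RefSeq (GRCm38.p6), with each CpG in capitals. The H3K9ac-only genes Nusap1, Kifc1 and Ube2c encode a spindle-associated protein, a kinesin of the spindle and the ubiquitin-conjugating enzyme of the anaphase-promoting complex. The H3K9cr-only genes Sult1b1, Il1r1 and Gjb1 encode a sulfotransferase, the receptor of IL-1β and a gap junction protein.
Nusap1, chr2:119618048-119618347, plus strand: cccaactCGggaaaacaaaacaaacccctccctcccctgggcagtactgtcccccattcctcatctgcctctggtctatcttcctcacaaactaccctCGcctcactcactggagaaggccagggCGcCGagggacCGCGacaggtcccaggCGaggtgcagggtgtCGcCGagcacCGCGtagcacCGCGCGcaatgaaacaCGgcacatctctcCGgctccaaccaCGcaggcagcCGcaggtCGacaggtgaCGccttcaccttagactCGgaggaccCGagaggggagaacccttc
Kifc1, chr17:33890584-33890883, minus strand: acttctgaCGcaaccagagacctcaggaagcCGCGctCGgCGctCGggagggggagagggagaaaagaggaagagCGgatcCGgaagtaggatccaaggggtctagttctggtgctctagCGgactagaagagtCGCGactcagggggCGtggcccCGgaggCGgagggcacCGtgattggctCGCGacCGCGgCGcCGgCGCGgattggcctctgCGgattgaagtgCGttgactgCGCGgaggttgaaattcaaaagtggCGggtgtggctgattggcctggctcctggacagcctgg
Ube2c, chr2:164769679-164769978, plus strand: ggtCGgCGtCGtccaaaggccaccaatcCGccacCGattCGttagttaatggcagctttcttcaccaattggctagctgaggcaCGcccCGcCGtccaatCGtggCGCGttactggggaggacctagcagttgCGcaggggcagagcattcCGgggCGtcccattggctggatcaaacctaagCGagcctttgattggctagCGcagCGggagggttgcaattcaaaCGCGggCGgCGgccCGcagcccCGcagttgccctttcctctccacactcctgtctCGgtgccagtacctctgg
Sult1b1, chr5:87536173-87536472, minus strand: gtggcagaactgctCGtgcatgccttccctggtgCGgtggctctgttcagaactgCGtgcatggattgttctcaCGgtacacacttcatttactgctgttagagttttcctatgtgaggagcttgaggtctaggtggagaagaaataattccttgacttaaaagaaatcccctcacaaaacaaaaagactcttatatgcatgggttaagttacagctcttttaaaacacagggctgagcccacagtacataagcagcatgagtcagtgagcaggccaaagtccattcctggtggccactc
Il1r1, chr1:40224830-40225129, plus strand: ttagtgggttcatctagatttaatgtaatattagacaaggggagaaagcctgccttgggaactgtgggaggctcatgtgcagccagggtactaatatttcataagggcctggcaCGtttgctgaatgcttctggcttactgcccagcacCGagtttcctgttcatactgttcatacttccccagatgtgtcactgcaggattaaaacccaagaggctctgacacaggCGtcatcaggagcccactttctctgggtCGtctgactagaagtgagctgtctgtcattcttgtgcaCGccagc
Gjb1, chrX:101376985-101377284, plus strand: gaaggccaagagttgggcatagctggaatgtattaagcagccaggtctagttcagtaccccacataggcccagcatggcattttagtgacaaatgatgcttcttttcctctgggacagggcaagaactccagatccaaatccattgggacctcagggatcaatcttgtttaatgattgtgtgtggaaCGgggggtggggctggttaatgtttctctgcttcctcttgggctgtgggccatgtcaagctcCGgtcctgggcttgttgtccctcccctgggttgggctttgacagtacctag
The windows held 22, 28 and 25 CpG in Nusap1, Kifc1 and Ube2c, and 4, 5 and 2 in Sult1b1, Il1r1 and Gjb1. GC content was 63.0%, 64.0% and 62.0% in the former and 46.7%, 49.3% and 51.7% in the latter. In the Nusap1 window H3K9ac peaks covered 300 bp (WT) and 281 bp (ACSS2-/-) and H3K9cr peaks 0 bp, and in the Sult1b1 window each H3K9cr list covered all 300 bp and H3K9ac 0 bp. Coverage by H3K9ac was only 40 and 81 bp in the Kifc1 window, and 48 and 300 bp in the Ube2c window. H3K9cr covered 69, 149, 300 and 300 bp of the Il1r1 window and 158, 13, 300 and 300 bp of the Gjb1 window. Il1r1 has another annotated start inside the gene, chr1:40266336-40266635, with 14 CpG, and all 6 samples had a peak there. Il1r1 was therefore H3K9cr-only at its gene ends and at the first start but not throughout. Gjb1 has other annotated starts with 3, 6 and 15 CpG, and those with 6 and 15 had no peak in any sample.

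H3K9cr without H3K9ac was found at 2935 of the 63279 regions (4.64%), and H3K9ac without H3K9cr at 540 (0.853%). All 6 samples shared 15205 regions (24.0%), and the remaining 44599 (70.5%) were mixed. Most of the mixed regions rested on few samples, with 18783 in a single H3K9cr sample and 8120 in a single H3K9ac sample. Among the 49943 genes, 470 were H3K9cr-only (0.941%), 149 were H3K9ac-only (0.298%), 15827 carried both marks in all 6 samples and 27736 had no peak. Since these counts are the rule itself, they are given without a test. The classes were not of equal stringency, as H3K9ac-only required 4 absences and H3K9cr-only 2. With replicate 2 alone, 2 samples of each mark, 4720 regions were H3K9cr-only and 949 H3K9ac-only. With the 25585 longest peaks of each list the numbers were 1609 and 986, and at genes they changed order, with 285 H3K9cr-only and 411 H3K9ac-only.

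Genes with H3K9cr alone included many lncRNA genes. Of the 470, 270 (57.4%) were lncRNA genes, 71 pseudogenes and 109 protein-coding (23.2%), whereas 75 of the 149 H3K9ac-only genes were protein-coding and 39 lncRNA genes. Of the mixed genes 40.3% were lncRNA genes and 39.2% protein-coding, of the genes without a peak 26.7% were of each kind, and 21887 of all 49943 genes were protein-coding. Genes with 1 region in common are not independent. The 470 genes drew on 855 regions, of which 393 were H3K9cr-only, and the 149 on 170, of which 76 were H3K9ac-only. The rest were regions of other classes, so a 1-mark gene need not hold a 1-mark region.

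The 10 protein-coding H3K9cr-only genes with the longest coverage in their least covered sample included several of metabolism and of immune cells. Around Sult1b1, peaks covered 3156, 2793, 2149 and 2030 bp in the H3K9cr samples. Lax1, an adaptor of lymphocyte signalling, had 2128, 1937, 3311 and 2636 bp. Sftpb, surfactant protein B, had 1794, 2247, 1749 and 2021 bp. H3K9ac was 0 bp in both samples at each, as the rule requires. Csf2ra, a chain of the GM-CSF receptor, had 1565, 2583, 1786 and 1472 bp, and Pdcd1lg2, a ligand of the checkpoint receptor PD-1, had 1466, 1618, 2217 and 2131 bp. Gstp3, a glutathione transferase, had 1472, 2510, 3230 and 2386 bp, Rdh7, a retinol dehydrogenase, 2188, 1700, 2287 and 2195 bp, and Mrln, a micropeptide that inhibits the calcium pump of muscle, 1950, 1944, 3754 and 1719 bp. The others were Defb21, a beta-defensin, with 1441 to 1557 bp, and 1700001J03Rik with 1540 to 3943 bp. The longest non-coding members were the pseudogene Gm3121 (4323 to 4905 bp) and the lncRNA genes Gm31037 (3439 to 4094 bp) and Gm39623 (3414 to 5997 bp).

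Further H3K9cr-only genes of kidney and liver metabolism or transport were named after their values were seen. Cyp2c23, an arachidonic acid epoxygenase, had 2340, 1242, 773 and 1093 bp. Bhmt, which remethylates homocysteine, had 2620, 739, 3752 and 3792 bp. Slc6a13, a GABA and taurine transporter, had 1761, 1727, 2751 and 704 bp, and Trpv5, the calcium channel of the distal tubule, 877, 758, 2333 and 1526 bp. Among the lists of genes, the H3K9cr-only members were Myh11, the smooth muscle myosin (462, 586, 551 and 1336 bp), Myh6, the cardiac myosin (970, 1323, 1935 and 2165 bp), Il1r1 (419, 1015, 1218 and 1132 bp) and Olfr5, an olfactory receptor (375 to 1619 bp).

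The leading H3K9ac-only protein-coding genes were shorter in coverage and included genes of cell division and adhesion. Nptx1, a neuronal pentraxin, had 1330 bp (WT) and 1942 bp (ACSS2-/-). Nusap1 and Oip5, a centromere protein, start from the same CpG-rich stretch and shared 1 peak of 1330 and 1314 bp. Cdh24, a cadherin, had 1077 and 2170 bp, and Skor1, a transcriptional corepressor, 824 and 777 bp. The others were Slc26a10 (1083 and 1878 bp), B3gnt4 and Lrrc43 with the same peaks (960 and 1354 bp) and D430019H16Rik (759 and 1556 bp). The leading other genes were Gm11762, at the Nptx1 peak, Gm8776 (1135 and 1045 bp) and Mir6948, at a Cdh24 peak (1077 and 1771 bp). Members of the gene lists in this class were Col1a1, the fibrillar collagen of fibroblasts (499 and 1053 bp), Rgs5, a pericyte marker (488 and 560 bp), Bub1, a spindle checkpoint kinase (478 and 935 bp), and Zap70, a T cell kinase (461 and 781 bp).

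Of the 75 protein-coding H3K9ac-only genes, 9 act in cell division by textbook knowledge. They were picked out after their values were seen, so their number supports no claim about the class. Besides Nusap1, Oip5 and Bub1 they were Aspm (624 and 428 bp), Clspn (711 and 782 bp), Kifc1 (755 and 769 bp), Pif1 (591 and 1401 bp), Ube2c (582 and 1072 bp) and Cdc25c (650 and 711 bp). In the list of 24 cell cycle genes, 16 carried both marks in all 6 samples, 7 were mixed and only Bub1 was H3K9ac-only.

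**Figure D1:**
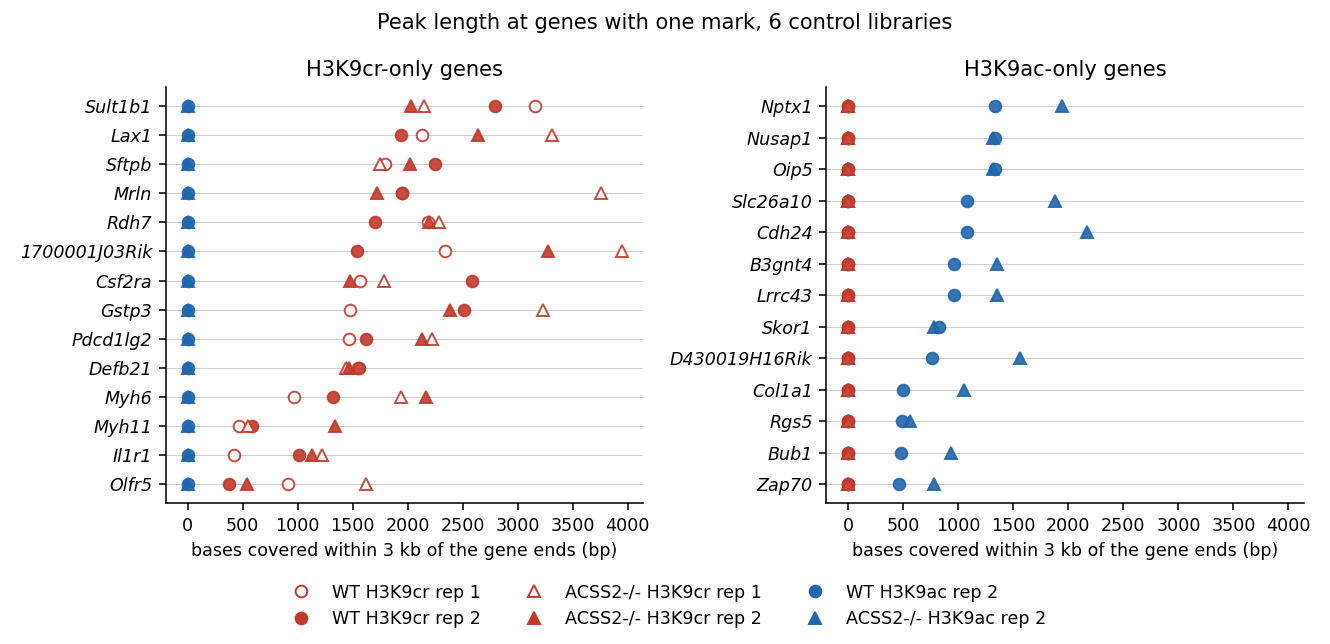
Bases covered by peaks within 3 kb of the gene ends (bp, horizontal axis) at the leading protein-coding genes and list members of each class, 1 point per control sample, red for H3K9cr and blue for H3K9ac, circles for WT and triangles for ACSS2-/-. Sult1b1 leads the H3K9cr-only genes with 2030 to 3156 bp, and Nptx1 the H3K9ac-only genes with 1330 and 1942 bp.

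The classes lay in different places. H3K9ac-only regions lay closer to gene ends and to shared regions than H3K9cr-only regions, whose position resembled that of mixed regions. Only 132 of the H3K9cr-only regions (4.50%) lay over an annotated start, against 56 of the H3K9ac-only regions (10.4%) and 60.7% of the shared ones, with 3.75% of the mixed and 17.5% of all regions. Within 3 kb of a gene end were 26.1%, 48.3% and 79.7%, against 29.3% of the mixed and 41.4% of all regions. Over 10 kb from every gene end were 47.9%, 20.2% and 11.3%, against 42.4% of the mixed and 35.0% of all. Distance from starts and gene ends was therefore not particular to the H3K9cr-only regions. The annotated starts came from 27025 of the 49943 genes, so distance to a start missed those of the other genes. Inside a protein-coding gene lay 43.8% of the H3K9cr-only regions, 81.5% of the H3K9ac-only, 81.0% of the shared and 67.6% of all regions. A shared region was found within 5 kb of 17.8% of the H3K9cr-only and 52.8% of the H3K9ac-only regions, against 27.2% of the mixed ones. H3K9ac-only regions were also the shorter, with a median of 844.5 bp against 1822 bp for H3K9cr-only and 2710 bp for shared regions, and region length rises with the number of lists merged.

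H3K9ac-only regions close to a start lay mostly on its transcribed side. Among regions 1 bp to 10 kb from the nearest start, 202 of 278 H3K9ac-only regions (72.7%) were downstream of it, against 316 of 709 H3K9cr-only regions (44.6%). For shared and mixed regions the share was 54.4% and 59.3%. Regions are not replicates of a condition, and these shares are descriptions.

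Promoters under 1 mark differed in CpG content, as in the sequences shown. The 173 start windows with H3K9cr alone held a median of 4 CpG (quartiles 3 and 6), close to the 3 CpG of the 17298 windows without any peak. The 111 windows with H3K9ac alone held a median of 15 (quartiles 8 and 22.5), and the 10844 with both marks 22. The 4425 mixed windows held a median of 11 and all windows 7. Windows with at least 10 CpG made up 13.3% of the H3K9cr-only, 71.2% of the H3K9ac-only, 87.7% of the shared and 43.5% of all 32851 windows. The H3K9cr-only windows belonged to lncRNA genes in 116 cases and the H3K9ac-only windows in 23, so the gene types of the classes differed along with their CpG content, and the part of gene type in the difference was not tested.

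Short motifs, searched on both strands and chosen after the classes were known, were also unequal. The TATA box letters TATAAA stood in 17.9% of the H3K9cr-only windows, 11.7% of the H3K9ac-only, 5.96% of the shared and 13.6% of all windows. The ETS-type letters CCGGAAG stood in 4.05%, 9.91%, 20.3% and 8.86%. The AP-1 letters TGANTCA stood in 9.83%, 4.50%, 4.32% and 7.81%. GTTAATNAT, a form of the HNF1 site, was in 5 of 173 H3K9cr-only and 0 of 111 H3K9ac-only windows, against 0.801% of all. In the 17298 windows without any peak, TATAAA stood in 19.4%, CCGGAAG in 2.49%, TGANTCA in 10.4% and GTTAATNAT in 0.965%. The TATA box and AP-1 shares were therefore not particular to the H3K9cr-only windows. Letters of CCAAT, CHR, E2F and HNF4 elements were also searched and are left out here. Such matches are letters in a window and not binding sites.

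**Figure D2:**
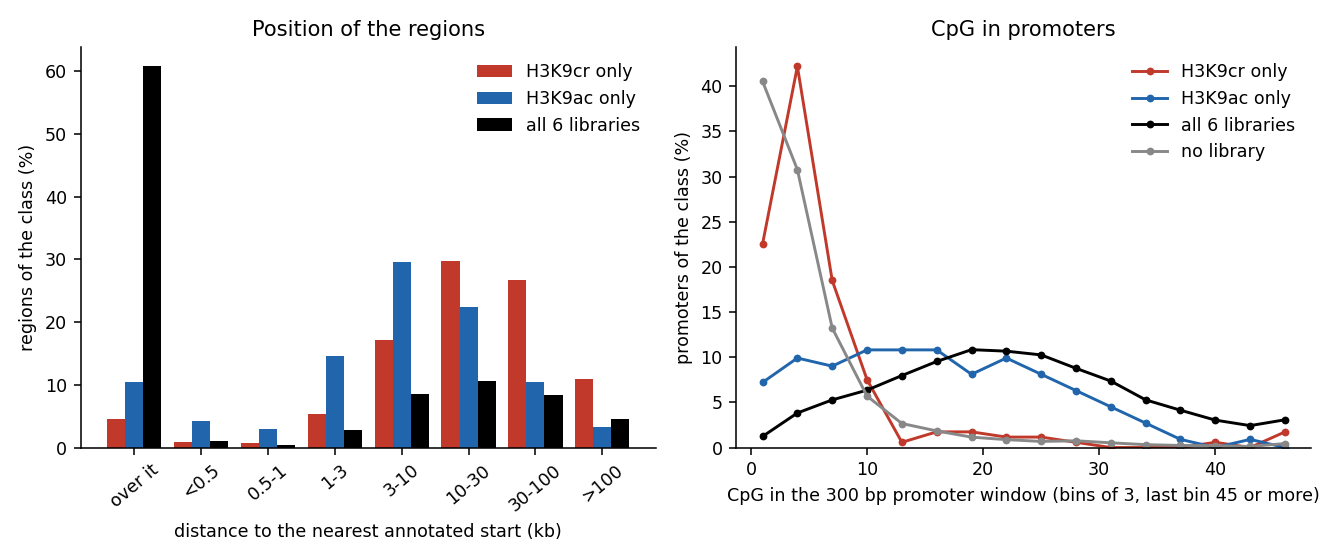
Left, share of the regions of each class (%) by distance to the nearest annotated start (kb). Right, share of the promoters of each class (%) by number of CpG in the 300 bp window. Of the H3K9cr-only regions 4.50% lie over a start and of the H3K9ac-only regions 10.4%, and H3K9cr-only promoters hold few CpG, with a median of 4 against 15 for H3K9ac-only.

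Most H3K9cr-only regions, 2170 of 2935 (73.9%), and 279 of the 540 H3K9ac-only regions (51.7%) lay over 3 kb from every gene end. The longest distal H3K9cr-only region by its least covered sample, chr3:21983116-21989140 (mm10), had 5642, 4609, 6025 and 5606 bp, 18.8 kb from the nearest gene end, of Gm31813. An intronic or exonic position was not assigned, as exons were not analysed here. The next were chr3:109536531-109543145 inside Vav3, a guanine nucleotide exchange factor (4495 to 4884 bp), chr7:84355205-84362913 inside Arnt2 (4417 to 7709 bp), chr8:60490059-60495988 at 9.86 kb from Aadat (4402 to 5463 bp) and chr12:25247870-25254249 (4030 to 5760 bp). Of the distal H3K9ac-only regions, the longest were an adjacent pair on chromosome 17, chr17:25071298-25073485 (1673 and 1683 bp) and chr17:25068939-25070999 (2061 and 1319 bp). The others lay inside Akt1, a kinase of insulin signalling (1364 and 1822 bp), Atp6v0d1, a subunit of the proton pump (1337 and 1428 bp), and Larp1, an RNA-binding protein (1312 and 1757 bp).

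The UUO samples had no part in choosing the classes and gave a separate reading of them. Peaks of the 4 UUO H3K9cr samples overlapped 50.5% and 34.4% (WT) and 47.1% and 41.5% (ACSS2-/-) of the H3K9cr-only control regions. The 4 UUO H3K9ac samples overlapped 1.26% and 2.56% (WT) and 1.33% and 6.06% (ACSS2-/-) of them. The groups did not overlap. Over all 63279 regions the shares were 41.6%, 35.5%, 39.6% and 33.5% for UUO H3K9cr and 20.1%, 22.5%, 21.2% and 28.8% for UUO H3K9ac. The H3K9cr shares thus lay near those over all regions, in WT replicate 2 below, and the H3K9ac shares lay far below them.
At H3K9ac-only control regions the shares were 21.1%, 16.9%, 18.1% and 9.63% for UUO H3K9cr and 7.96%, 14.4%, 11.5% and 34.4% for UUO H3K9ac. These overlapped, and the highest came from ACSS2-/- UUO H3K9ac replicate 2, which had 24571 peaks where the other H3K9ac lists after UUO had 15988 to 18580.

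The share of H3K9cr-only over that of H3K9ac-only regions, on the log2 scale, was 1.44 ± 0.47 (SD, n = 4) in UUO H3K9cr and -2.69 ± 0.29 (SD, n = 4) in UUO H3K9ac. The difference of 4.14 had p = 0.0286 in a two-sided exact permutation test, the smallest that 70 arrangements can give, and p = 0.0556 with marks permuted within genotype, the smallest of 36. For genes the difference was 3.56 (exact permutation p = 0.0286). The H3K9ac-only class showed this only relative to other regions. Its share alone differed by -0.65 percentage points between UUO H3K9cr and UUO H3K9ac (exact permutation p = 0.971), while UUO H3K9cr lists were also the longer ones, with 27530 to 36734 peaks. Against the mixed regions as a common base, H3K9cr-only regions were higher in UUO H3K9cr by 2.14 on the log2 scale. H3K9ac-only regions were higher in UUO H3K9ac by 2.0 (exact permutation p = 0.0286 each). This base was not neutral between the marks. Of the mixed regions, 18783 had a peak in a single H3K9cr sample alone and 8120 in a single H3K9ac sample alone. The part of this make-up in the 2.0 was not tested.

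The region-by-region counts were as follows. Of the 2935 H3K9cr-only regions, 404 (13.8%) had a peak in all 4 UUO H3K9cr samples and in no H3K9ac sample, and 1833 had H3K9cr in at least 1 and H3K9ac in none. The reverse held for 12, and 839 (28.6%) had no peak after UUO. Of the 540 H3K9ac-only regions, 98 had H3K9ac without H3K9cr after UUO, 62 H3K9cr without H3K9ac, and 249 (46.1%) no peak. Of the 470 H3K9cr-only genes, 75 had a peak in all 4 UUO H3K9cr samples and in no H3K9ac sample, 92 had no peak after UUO, and 316 had H3K9cr in at least 1 and H3K9ac in none. Sftpb, Csf2ra and Pdcd1lg2 had H3K9cr in 4 of 4 UUO samples and H3K9ac in 0 of 4, while Rdh7 had H3K9cr in 1 and Bhmt and Gsta1 had no peak of either mark. Il1r1 had H3K9cr in 4 and H3K9ac in 2. Nusap1, Oip5, Pif1 and Cdh24, all without H3K9cr in the 4 control samples, had both marks in all 8 UUO samples. Skor1, Gm8776 and Cdc25c had no peak in any UUO sample.

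**Figure D3:**
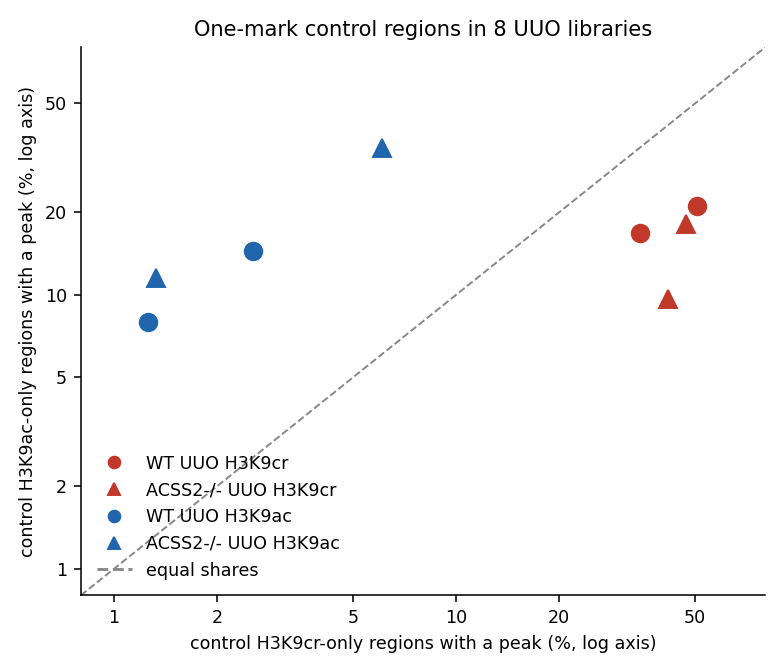
Each of the 8 UUO samples as 1 point, with the share of H3K9cr-only control regions that it overlaps on the horizontal axis and that of H3K9ac-only regions on the vertical axis (%, both log axes), and a broken line where the shares are equal. H3K9cr samples (red) lie at 34.4% to 50.5% of the H3K9cr-only regions and H3K9ac samples (blue) at 1.26% to 6.06%, on opposite sides of the line, whereas their vertical ranges overlap.

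Where both marks were present, peaks were of similar length over whole samples. The median length covered in the 15205 shared regions was 1633, 1724, 2019 and 1854 bp for H3K9cr and 1673 and 2178 bp for H3K9ac. The means were 1807.5 ± 168 bp (SD, n = 4) and 1925.5 ± 357 bp (SD, n = 2), a log2 difference of -0.08 that was smaller than the spread between samples. The two-sided exact permutation p was 0.667, where 15 arrangements cannot give less than 0.0667. Within genotype, the log2 ratio of the H3K9cr to the H3K9ac median was -0.03 and 0.04 in WT and -0.11 and -0.23 in ACSS2-/-. Shared regions held 60.7% to 74.5% of the length of an H3K9cr list and 89.9% (WT) and 78.0% (ACSS2-/-) of an H3K9ac list. Across shared regions, Pearson's r of log2 length was 0.838 to 0.877 between H3K9cr samples, 0.832 between the H3K9ac samples and 0.62 to 0.71 between marks, where regions are not independent and share annotation and tissue.

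Single regions did differ. After each sample was centred on its own median, limma with genotype as a covariate called H3K9cr longer at 1072 regions (7.05%) and H3K9ac longer at 276 (1.82%), at a Benjamini-Hochberg adjusted p under 0.05. All 4 H3K9cr lengths exceeded both H3K9ac lengths at 1757 regions (11.6%) and were below both at 3125 (20.6%), without centring. With genotype and replicate number as a block, the calls were 544 and 77, of which 506 and 28 were also called without it. Each of the 6 samples mattered to the counts, and without the WT H3K9ac sample they were 271 and 13.

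The direction depended on position. Over a start, 191 of 9235 regions were longer for H3K9cr and 215 for H3K9ac. Over 10 kb from every listed start, 622 of 4012 (15.5%) were longer for H3K9cr and 40 (0.997%) for H3K9ac. Between 1 bp and 3 kb the calls were 71 and 5 of 655, and between 3 and 10 kb 188 and 16 of 1303. Starts were listed for 27025 of the 49943 genes, so the far regions can include starts that were not listed. Regions over an end of Bmp2 (longer for H3K9ac) and Pou6f1 (longer for H3K9cr) lay 89057 and 21043 bp from the nearest listed start. Median H3K9ac lengths were 1286 and 1792 bp far from starts and 1934 and 2410 bp over them, while median H3K9cr lengths were 1549.5, 1652, 2037 and 1814.5 bp far and 1696, 1788, 2037 and 1895 bp over starts. The log2 ratio of far to start length was -0.59 and -0.43 for H3K9ac and -0.13, -0.11, 0.00 and -0.06 for H3K9cr (exact permutation p = 0.0667, the smallest possible). In the UUO samples the same measure was -0.17, -0.23, -0.20 and -0.24 for H3K9cr and -0.32, -0.37, -0.40 and -0.45 for H3K9ac, a difference of 0.17 (exact permutation p = 0.0286, n = 4 and 4). This measure was chosen after the control values were seen. In UUO its medians took only regions with a peak. These were 55.8% to 77.9% of the far regions for H3K9ac and 87.4% to 93.4% for H3K9cr.

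At starts in the control samples, H3K9ac extended farther into the gene. Taken were 4530 protein-coding starts with both marks in all control samples and no other listed start within 5 kb. Around them, H3K9ac peaks covered on average 1437 and 1696 bp of the 3 kb downstream. Of the 3 kb upstream they covered 690.2 and 890.4 bp. H3K9cr peaks covered 1143, 1195, 1349 and 1232 bp downstream and 783, 813, 949 and 900.0 bp upstream. The log2 ratio of downstream to upstream was 0.52 ± 0.05 (SD, n = 4) for H3K9cr and 0.99 ± 0.09 (SD, n = 2) for H3K9ac, with no overlap (difference -0.48, exact permutation p = 0.0667, the smallest possible). In UUO samples it was 0.60 ± 0.02 for H3K9cr and 1.28 ± 0.10 for H3K9ac (SD, n = 4 each, difference -0.68, exact permutation p = 0.0286). In UUO the downstream lengths overlapped, at 979 to 1178 bp for H3K9cr and 968 to 1363 bp for H3K9ac. Upstream, H3K9ac was the shorter, at 376 to 618 bp against 634 to 793 bp. At 1.5 kb downstream, 37.7% and 49.3% of these starts were under H3K9ac and 19.9% to 29.0% under H3K9cr in control. In UUO these shares overlapped, with 15.9% to 32.7% under H3K9ac and 13.5% to 21.4% under H3K9cr.

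**Figure D4:**
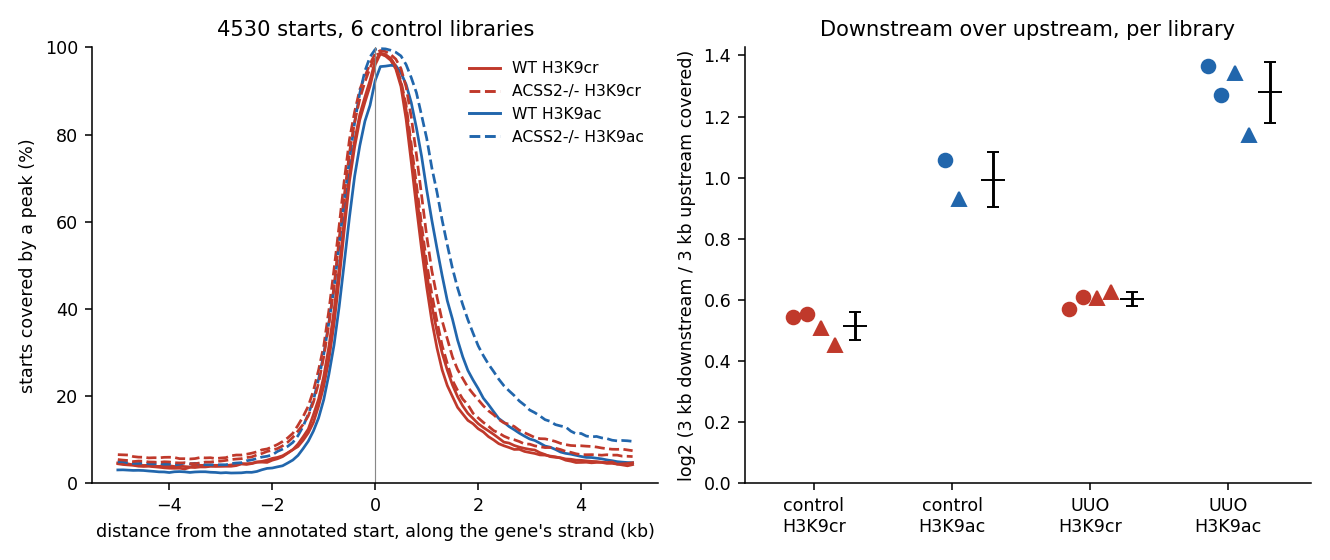
Left, share (%) of 4530 protein-coding starts under a peak by distance from the start (kb, positive downstream) in each control sample, with WT as full and ACSS2-/- as broken lines. Right, log2 ratio of covered length downstream to upstream in each control and UUO sample, with the mean and SD as black bars. H3K9ac lies above H3K9cr in both conditions, at 0.99 against 0.52 in control and 1.28 against 0.60 after UUO.

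The regions with the widest gap in favour of H3K9cr included a tubular transporter and a mitochondrial enzyme. At the start of Omd, a small proteoglycan, H3K9cr covered 2785, 5055, 5921 and 3258 bp and H3K9ac 548 and 492 bp (log2 difference 3.05 ± 0.32 SE, limma adjusted p = 0.0056). At Cryzl2, a quinone oxidoreductase-like gene, the lengths were 6808, 6101, 6522 and 5300 bp against 1410 and 795 bp. Near Slc6a19, the neutral amino acid transporter of the proximal tubule, they were 2263, 1553, 2903 and 1798 bp against 348 and 465 bp (2.45 ± 0.25 SE, limma adjusted p = 0.0053). Kif12, a kinesin expressed in kidney, had 3457, 2251, 3616 and 3457 bp against 561 and 503 bp. Acsm5, a medium-chain acyl-CoA synthetase, had 2760 to 4071 bp against 923 and 682 bp. The others of the 10 were Gm572, Ndufb4b, Cul9, Pou6f1 and Gabarapl1, with log2 differences of 2.83, 2.91, 2.54, 2.53 and 2.66. H3K9cr and H3K9ac did not overlap at any of the 10, by the way they were chosen.

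The regions with the widest gap in favour of H3K9ac included ribosomal protein genes and genes of growth control. Rflnb, a filamin-binding protein, had 1072, 936, 564 and 530 bp of H3K9cr against 2867 and 3030 bp of H3K9ac (log2 difference -1.91 ± 0.22 SE, limma adjusted p = 0.0072). Pcbp2, an RNA-binding protein, had 460 to 835 bp against 1901 and 2646 bp, and Bmp2, a ligand of the TGF-β family, 608 to 760 bp against 1671 and 2445 bp. Rpl35 and Rps9, ribosomal proteins, had 1345 to 1628 bp against 3383 and 3957 bp, and 1638 to 1710 bp against 3651 and 3495 bp. Cox8a, a subunit of cytochrome c oxidase, had 1068 to 1551 bp against 3060 and 3681 bp. Asf1b, a histone chaperone of DNA replication, had 478 to 586 bp against 1186 and 1488 bp. Lrrc29, Lamc3 and Ripor1 completed the 10, at -1.17, -1.49 and -1.43. Of the 20 named regions, 4 lost their call with the replicate block, Rps9 (limma adjusted p = 0.0852), Lrrc29 (0.0701), Ripor1 (0.0651) and Asf1b (0.0508). Without the WT H3K9ac sample 8 lost it, Slc6a19 among them (limma adjusted p = 0.0575), and 8 did without the ACSS2-/- H3K9ac sample. Calls were also lost in each genotype alone, where 1 H3K9ac sample remained. The direction stayed the same in each of these settings. That followed from the choice of the 20 regions, as the marks did not overlap at any of them. Length at the 1072 and 276 called regions was read again in UUO, as medians over those that had a peak. UUO H3K9ac samples had a peak at 22.1%, 30.8%, 29.4% and 51.6% of the H3K9cr-longer regions. For UUO H3K9cr samples this was 82.4% to 92.8%. The log2 length at the H3K9cr-longer over the H3K9ac-longer regions was 0.15, 0.02, 0.07 and 0.17 in UUO H3K9cr and -1.01, -1.15, -1.38 and -1.32 in UUO H3K9ac (difference 1.32, exact permutation p = 0.0286).

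Few members of the gene lists were in a class with 1 mark alone. Both marks in all 6 samples were found at 31.7% of all genes and 55.0% of protein-coding genes. They were found at 17 of 20 proximal tubule markers, 27 of 27 genes of fatty acid oxidation and crotonyl-CoA metabolism, 30 of 30 ribosomal protein genes, 28 of 29 writers, erasers and readers of histone acylation and 18 of 23 nephron lineage factors. Among other markers they were found at 11 of 14 endothelial, 9 of 20 distal nephron and collecting duct, 7 of 15 injured tubule, 6 of 12 podocyte, 4 of 16 stromal, 2 of 18 macrophage and neutrophil and 2 of 16 T, NK and B cell markers. Acss2 itself carried both, with 1279, 1334, 2719 and 913 bp of H3K9cr and 2319 and 2823 bp of H3K9ac, which does not check the deletion. Il1b, the cytokine on which the study centred, had no peak in the 6 control samples.

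Centred length at the shared regions of a list was close to the median of all regions, -0.03 (log2 H3K9cr minus H3K9ac), at proximal tubule markers (0.004), fatty acid oxidation genes (0.04) and nephron lineage factors (0.03). Without centring all values were lower, the median of all regions was -0.11, and the sign of these lists turned negative. H3K9ac was relatively long at ribosomal protein genes, with a median of -0.42 over 37 regions, 34 of them below 0, against 8058 of all 15205 shared regions and 6844 of the 10881 near protein-coding genes (median -0.11), and 4 called, against 276 of all (Rps9, Rps18, Rps4x and Rpl19). At endothelial markers the median was -0.61 over 10 regions, all 10 below 0 and 1 called. That was Pecam1, an adhesion protein, with 743, 1573, 1635 and 1462 bp of H3K9cr against 3171 and 3826 bp. The median was -0.56 at 6 podocyte regions and -0.40 at 20 cell cycle regions, with none called by limma. These medians are descriptions, and they stayed negative over all 11 settings tried.

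List members longer for H3K9cr included transcription factors and transporters of the nephron. Tfcp2l1, a factor of the collecting duct, had 3596, 4301, 5210 and 5015 bp against 738 and 1454 bp (2.20 ± 0.17 SE, limma adjusted p = 0.0031), and Slc12a3, the sodium chloride cotransporter of the distal tubule, 3844, 2819, 5361 and 4743 bp against 1301 and 1582 bp (1.59 ± 0.22 SE, limma adjusted p = 0.011). Osr1 and Esrrg, nuclear factors, were longer by 1.53 and 0.80, and Cx3cl1, a chemokine, by 1.35. The olfactory receptor genes Olfr1393 and Olfr1443 were longer for H3K9cr by 1.36 and 2.17. Among writers, erasers and readers, the double PHD finger protein Dpf2 (1852, 2311, 2656 and 2892 bp against 5430 and 6107 bp) and the YEATS protein Yeats4 (956 to 1403 bp against 1689 and 2563 bp) were longer for H3K9ac. Timp2, an inhibitor of metalloproteinases from the injured tubule list, was longer for H3K9ac by 1.01 on the log2 scale.

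**Figure D5:**
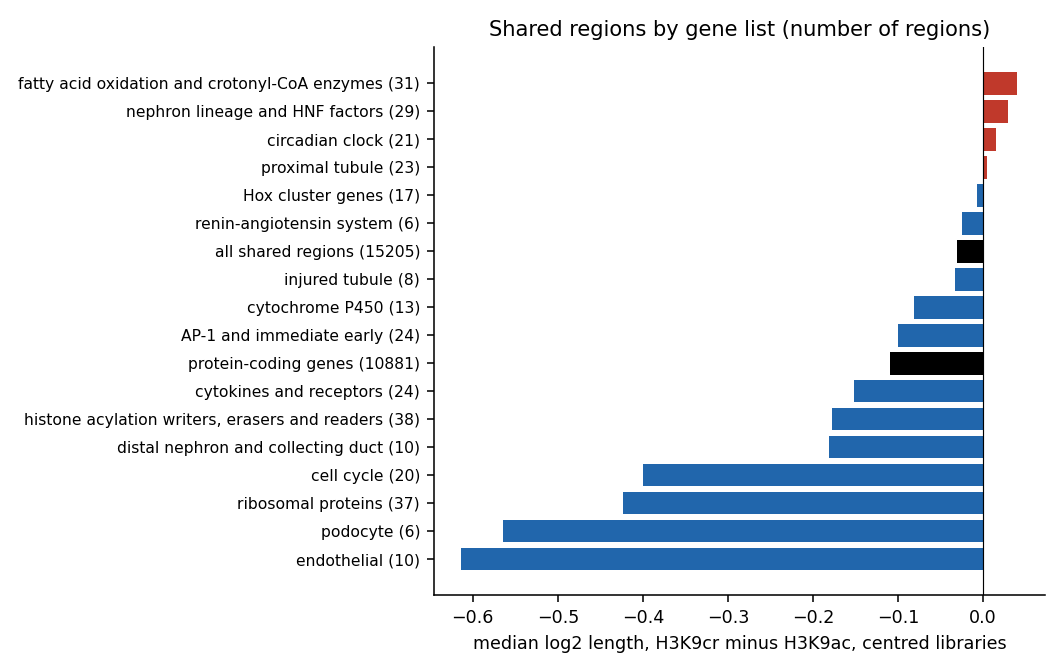
Median log2 length of H3K9cr minus H3K9ac at the shared regions of each gene list, after centring each sample, as 1 bar per list of at least 5 shared regions with the number in brackets, red above and blue below 0, and black for all shared regions and those of protein-coding genes. The endothelial (-0.61), podocyte (-0.56), ribosomal (-0.42) and cell cycle (-0.40) lists lie lowest, and the 4 drawn lists above 0 turn negative without centring.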

How the data were processed

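Per the labels and the study's methods, mouse kidney chromatin was sequenced after ChIP, and the authors filtered reads for quality, mapped them to mm10 (Bowtie2), discarded organelle, poorly mapped and duplicate reads, and ran MACS2 on each library. The deposited lists give peak positions in bp and neither counts nor scores, so depth is unknown. Tool versions and the MACS2 background sample are not given in the sources used here.

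Overlap of at least 1 bp was counted with the RefSeq annotation and promoters of GRCm38.p6. 0 values differed from bedtools 2.31.1 when 63279 regions of the 6 control lists were checked. Lengths were fitted with limma 3.58.1 in R 4.3.3, which was also tested on simulated data, with genotype as covariate. Sample values were compared by two-sided exact permutation. Scripts ran in Python 3.11.15 with SciPy 1.17.1 and pandas 2.3.3, and figures were drawn with matplotlib 3.10.9. Labels do not say whether replicates were separate animals, so p-values compare the marks among these samples only. The study drew both marks from the same samples, so the replicate 2 numbers pair the marks within each genotype. Log2 lengths correlated with r = 0.690 (WT) and 0.714 (ACSS2-/-) within those pairs and 0.62 to 0.70 in the other pairs of marks. For each H3K9ac sample the r was highest within its pair. WT H3K9cr replicate 2, however, correlated with the ACSS2-/- H3K9ac sample at 0.700, above its own pair. The numbers in the peak names matched the labels of the 6 control lists. In 4 of the 8 UUO lists they did not, and no pairing was used there. The UUO tests therefore treated the lists of both marks as separate samples, although the study drew both marks from the same ones.

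The members and gene lists were chosen with earlier results of these data known. Named were the 10 protein-coding and 3 other genes per class with the longest coverage in their least covered sample, list members in a class, the 10 called regions per direction with the widest gap between marks, the 5 longest distal regions per class, and Il1b, Il1r1 and Acss2, of which 1 gene is not reported here. Other names, motifs, CpG, downstream against upstream coverage and distance to starts were chosen after seeing the data. Alternatives were a 50% overlap, a 500 bp gap, equal numbers of peaks, other windows, lengths and filters, single genotypes, replicate 2 alone, the replicate block and leaving out each sample.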

Additional observations from a re-analysis of the deposited data

Results flagged for a closer look

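Groups of 4 samples of 1 mark, H3K9cr in control and either mark in UUO, were examined for a sample far from the other 3. Of 61 groups, 4 had such a sample, all of control H3K9cr, and chance alone gives about 1 in 20. At Mrln, ACSS2-/- H3K9cr replicate 1 had 3754 bp where the others had 1719 to 1950 bp. At Rdh7, WT H3K9cr replicate 2 had 1700 bp where the others had 2188 to 2287 bp. At Myh11, ACSS2-/- H3K9cr replicate 2 had 1336 bp where the others had 462 to 586 bp. At the shared region of Kif12, WT H3K9cr replicate 2 had 2251 bp where the others had 3457 to 3616 bp.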

How the results depend on the processing

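Numbers of 1-mark regions and genes moved with the samples and peaks used, and the cause was not tested beyond the fewer samples or peaks that these settings hold. H3K9cr-only and H3K9ac-only regions numbered 1609 and 986 with equal numbers of the longest peaks, 4720 and 949 with replicate 2 alone, 7243 and 4316 in WT alone and 7609 and 7554 in ACSS2-/- alone. Genes numbered 285 and 411 with equal peaks, 1266 and 565 in WT, 1085 and 973 in ACSS2-/- and 109 and 75 when protein-coding. A 1 kb window gave 311 H3K9cr-only genes, and replicate 2 alone gave 306 H3K9ac-only genes. Leaving out 1 sample gave 3139 to 4925 and 622 to 6800 regions, and 489 to 1008 and 178 to 792 genes. The length difference at shared regions, -0.08, turned to 0.032 in WT alone and ranged from -0.20 to 0.13 without 1 sample (0.13 without ACSS2-/- H3K9ac). Pairing replicate 2 gave -0.09. The limma calls, 1072 and 276, were 544 and 77 with the replicate block and with replicate 2 alone, 315 and 83 at regions with 1 peak per sample (chosen after seeing the data), 105 and 2 in ACSS2-/- alone, and 0 and 0 in WT alone, where 1939 and 941 regions had an unadjusted limma p under 0.05. Without 1 sample they were 271 to 757 and 13 to 103. No called region was called in the opposite direction under any of these settings, which reuse the same samples. The UUO carry-over, 4.14, had an exact permutation p of 0.0556 within genotype, the smallest possible, and ranged from 2.69 to 4.27 without 1 sample. Overlap of 50%, a 500 bp gap and autosomes alone kept the numbers of 1-mark regions within 1.5 times.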

Other observations

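Of the 2935 H3K9cr-only regions, 1285 lay inside protein-coding genes and were spread over 959 host genes. Rad51b, a gene of homologous recombination, held 9, and Glis3, a transcription factor of kidney and pancreas, Arhgap26, Lpp, Nav2 and Pde4d held 6 each. Of the 540 H3K9ac-only regions, 440 lay inside protein-coding genes, in 420 host genes, with 3 each in Tbx3, a T-box factor, Tns1 and Ywhaz. Long genes offer more room for regions, and this was not corrected for.

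Il1b had no peak in control kidneys. After UUO, H3K9cr peaks within 3 kb of its gene ends covered 390 and 513 bp in WT and 2103 and 0 bp in ACSS2-/-. H3K9ac covered 0 bp in all 4 samples, and no peak of either mark lay over the start window of Il1b.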
